A study of Mus musculus with 8 samples.

Results

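The genes of the Hippo pathway and the classical targets of YAP were followed through the methylation changes of mouse embryonic stem cells (ESCs) leaving the undifferentiated state with or without a preceding knockdown of YAP itself. The list holds 31 genes: the co-activators, their TEAD partners, the kinase cascade, its upstream regulators and 5 targets. A 250 bp window belonged to a gene when, among all annotated transcription start sites (TSSs), the one nearest to the centre of the window was that of the gene. By this rule 114 of the 54235 windows listed in any of the authors' 4 comparisons belonged to 24 of the 31 genes. The assignment uses distance alone, so a window can lie in the body of another gene.

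The Hippo pathway is a kinase cascade that restrains growth. The kinases Mst2 and Mst1 (Stk3 and Stk4), held by the scaffold Sav1, activate Lats1 and Lats2 together with the Mob1 proteins, and the Lats kinases phosphorylate YAP and its paralog TAZ (Wwtr1) and keep them out of the nucleus. When the cascade is silent, YAP and TAZ bind TEAD transcription factors at DNA and activate genes such as Ctgf, Cyr61 and Ankrd1. In ESCs YAP has been tied to the balance between self-renewal and differentiation. Methylation of cytosine in CpG dinucleotides is one of the marks that is rebuilt at the exit from pluripotency.

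The cells were E14Tg2a, a feeder-independent mouse ESC line, transfected with siRNA against YAP (YAP KD) or with a negative control siRNA (CTR KD). DNA was taken after 4 days of neuroectodermal differentiation in serum-free floating aggregates that resemble embryoid bodies (T4) and from undifferentiated cells (T0), and captured regions were sequenced after bisulfite conversion in 2 samples of each of the 4 groups, YAP KD T4, CTR KD T4, YAP KD T0 and CTR KD T0. The silencing is transient, so YAP KD at T4 names cells whose YAP was reduced earlier, and all groups share 1 cell line and transfection with an siRNA. The tables hold differences between groups, without levels, read depth or values per sample, so neither the knockdown of Yap1 nor the identity of the cells could be checked in them.

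Differences are in percentage points of methylation as the authors deposited them, T4 minus T0 for differentiation and YAP KD minus CTR KD for the knockdown. A window was called differentially methylated when its q-value was at or below 0.05 and its difference was over 10 points. The error after ± is a standard error (SE) worked back from the difference and its p-value. It holds no more than the error behind that p-value, which compares these libraries. The study does not state whether the p-value allows for the spread between samples of a group, so the SE may not. The median derived SE over the windows of the 31 genes was 0.528 points for YAP KD differentiation and 0.543 points for CTR KD differentiation. Neighbouring windows overlap and are not independent, and all coordinates are those of mm9.

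The windows on which the results below turn are shown first, with their CpGs in capitals. The pair of windows named first come from the stretches of DNA that held the called losses. The first lies in a coding exon of Odz2 (Tenm2, a teneurin, a cell-adhesion protein of neurons) whose nearest TSS is that of Wwc1. The other lies in a coding exon of Nin (ninein, a centrosomal protein) whose nearest TSS is that of Sav1. Both were called in YAP KD cells, and the Odz2 window shown was not called in CTR KD cells.
Odz2 exon near Wwc1, chr11:35860626-35860875, plus strand: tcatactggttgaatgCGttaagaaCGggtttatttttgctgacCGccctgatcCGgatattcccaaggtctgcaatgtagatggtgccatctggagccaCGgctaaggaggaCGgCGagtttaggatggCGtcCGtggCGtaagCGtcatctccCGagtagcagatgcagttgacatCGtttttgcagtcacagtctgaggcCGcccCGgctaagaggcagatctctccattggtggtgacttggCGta
Nin exon near Sav1, chr12:71143001-71143250, plus strand: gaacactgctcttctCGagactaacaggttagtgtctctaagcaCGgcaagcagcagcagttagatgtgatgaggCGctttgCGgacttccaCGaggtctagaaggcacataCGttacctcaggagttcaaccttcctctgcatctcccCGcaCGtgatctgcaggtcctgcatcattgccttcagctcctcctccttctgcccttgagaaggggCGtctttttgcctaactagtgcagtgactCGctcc
The next lies in a coding exon of Wwc1 itself, although the TSS nearest to it is that of Rars, and is shown because it changed the other way.
Wwc1 exon, chr11:35655251-35655500, plus strand: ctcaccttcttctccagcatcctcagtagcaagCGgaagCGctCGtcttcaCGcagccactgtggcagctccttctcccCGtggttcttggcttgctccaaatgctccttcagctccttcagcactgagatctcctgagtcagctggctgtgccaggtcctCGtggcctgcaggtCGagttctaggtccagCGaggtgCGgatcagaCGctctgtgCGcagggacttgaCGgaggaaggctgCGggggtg
The last pair lies in the an intron of Yap1 and in a coding exon of Ajuba (Jub in the annotation used). They are shown for the change at Yap1 in CTR KD cells and for the difference between knockdowns at Ajuba.
Yap1 intron, chr9:8003251-8003500, plus strand: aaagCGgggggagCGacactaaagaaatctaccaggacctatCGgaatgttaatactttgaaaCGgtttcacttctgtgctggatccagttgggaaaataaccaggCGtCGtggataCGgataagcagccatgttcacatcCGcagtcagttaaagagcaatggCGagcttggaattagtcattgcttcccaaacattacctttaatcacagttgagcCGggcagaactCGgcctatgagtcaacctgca
Ajuba exon, chr14:55195001-55195250, plus strand: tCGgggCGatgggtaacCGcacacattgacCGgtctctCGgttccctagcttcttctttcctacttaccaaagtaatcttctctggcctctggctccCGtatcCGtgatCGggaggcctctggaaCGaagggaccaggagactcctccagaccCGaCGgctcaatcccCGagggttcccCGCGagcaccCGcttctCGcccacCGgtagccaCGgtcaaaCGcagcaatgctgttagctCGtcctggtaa
The Odz2, Nin, Wwc1, Yap1 and Ajuba windows hold 16, 10, 13, 11 and 20 CpGs. The Yap1 window also holds the core letters bound by TEAD factors, GGAATG, which were searched on both strands as GGAATG and CATTCC. These letters were found in 16 of the 114 windows (14.04%), spread over 9 genes, and in 9.99% of all windows of the same length. They were in 0 of the 6 called windows, which says only that the letters are not in those windows.

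On differentiation, windows near Wwc1 and Sav1 were the ones called among these genes. In YAP KD cells 6 of 91 windows in 20 genes were called (6.59%), all of them losses near Wwc1 and Sav1, beside 3.85% of all windows called in either direction and 3.35% called as losses. In CTR KD cells 1 of 101 windows in 23 genes was called (0.99%), a loss near Wwc1, beside 3.17% of all windows in either direction and 2.21% as losses. No window of the 31 genes was called as a gain in either. The 6 windows called in YAP KD cells merged into 2 separate stretches of DNA, so the share of windows counts the same stretch several times.

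At the q threshold alone, 15 windows of 8 genes passed in YAP KD cells, which is 16.5% of their windows beside 16.1% of all windows, and 10 windows of 5 genes passed in CTR KD cells, which is 9.9% beside 14.3%. The share in YAP KD is that of the background. Of these, 6 windows passed in both. The median change was -0.05 points in YAP KD and -0.27 points in CTR KD over the windows of the 31 genes, beside -0.17 and -0.07 points over all windows in the same order. The knockdown comparisons called 0 of 92 windows at T4 and 0 of 100 windows at T0.

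**Figure D1:**
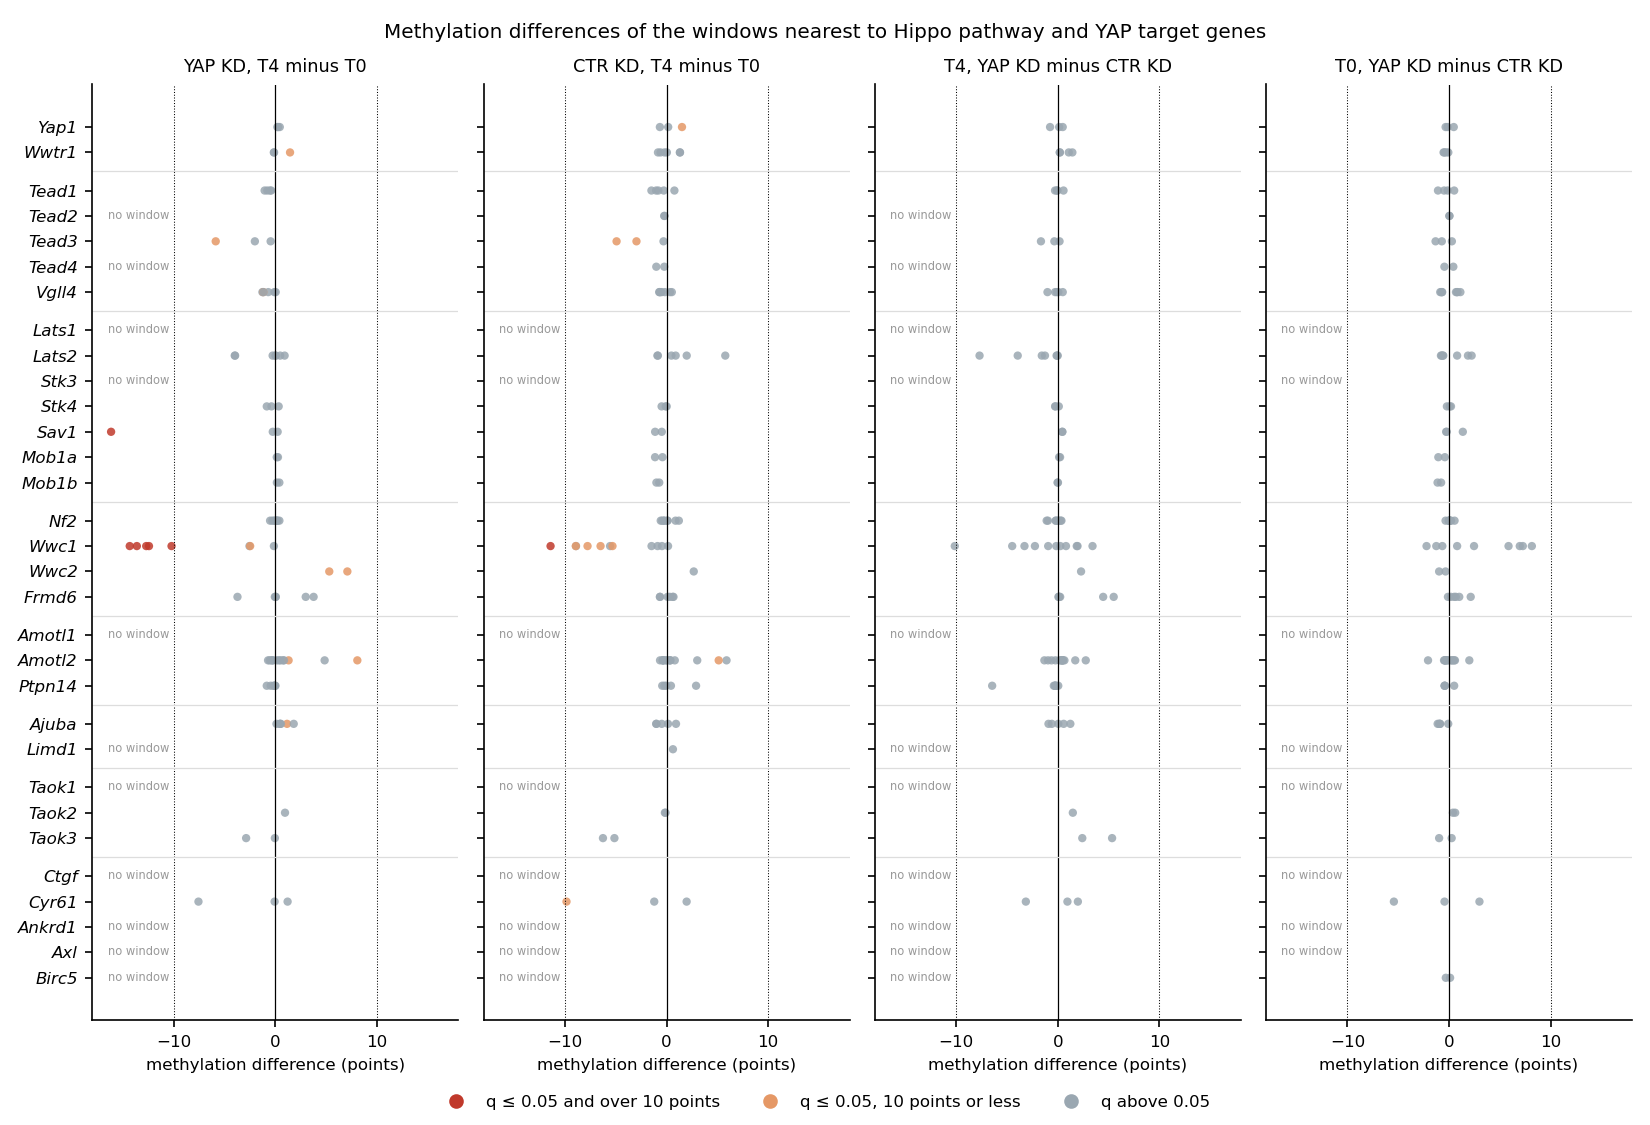
Methylation difference (x axis, percentage points) of every window of the 31 genes (y axis, 1 row per gene, grouped by role) in the 4 comparisons; each point is 1 window, colour gives the q-value and size class, and dotted lines stand at 10 points to either side of 0. The called windows are the 5 of Wwc1 and the 1 of Sav1 in YAP KD and 1 of Wwc1 in CTR KD, and the rows marked as having no window include Ctgf, Ankrd1 and Axl in all 4 comparisons.

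The co-activators YAP and TAZ differed little at their own start sites. Yap1 had 3 overlapping windows 131 to 381 bp downstream of its TSS on chromosome 9. The one in the intron at 381 bp (the sequence shown above) had 0.27 ± 0.445 points in YAP KD and 1.52 ± 0.444 points in CTR KD, of which only the CTR KD value passed the q threshold (q = 0.634 and 0.00587). The YAP KD change minus the CTR KD change there was -1.24 points (95% interval -2.48 to -0.0112), which did not pass the z test across all windows described below. The window nearest to the TSS, at 131 bp, had 0.199 ± 0.461 points in YAP KD and -0.66 ± 0.473 points in CTR KD. Between knockdowns the 3 windows of Yap1 lay between -0.761 and 0.482 points at T4 and between -0.338 and 0.465 points at T0. The gene targeted by the siRNA therefore had no window whose estimated difference between YAP KD and CTR KD reached 1 point at either time. The 95% intervals reach further, from -1.92 to 0.401 points at 381 bp at T4 and from -1.37 to 0.695 points at 131 bp at T0. Wwtr1, which encodes TAZ, had 6 windows on chromosome 3. The intergenic one 544 bp upstream of its TSS had 1.44 ± 0.509 points in YAP KD (q = 0.0266) and -0.204 ± 0.425 points in CTR KD (q = 0.688), a difference of 1.65 points (95% interval 0.348 to 2.95) that did not pass the z test either. The window 1 bp from the TSS had -0.128 ± 0.28 points in YAP KD and -0.846 ± 0.335 points in CTR KD (q = 0.682 and 0.0613).

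The TEAD factors, the DNA-binding partners of YAP and TAZ, held most of their measured change at Tead3. A window 1126 bp upstream of the Tead3 TSS on chromosome 17 (28488751 to 28489000), in a coding exon of the neighbouring Tulp1, had -5.87 ± 1.09 points in YAP KD (q = 1.5e-06) and -4.92 ± 1.08 points in CTR KD (q = 8.15e-05). Both passed the q threshold and stayed under 10 points. A second window, in a coding exon of Tead3 5087 bp upstream of the nearest of its start sites, had -2.02 ± 1.21 points in YAP KD (q = 0.251) and -2.96 ± 1.01 points in CTR KD (q = 0.0235). Closer to the start site, at 626 bp, the values were -0.466 ± 0.552 points in YAP KD and -0.304 ± 0.404 points in CTR KD. The changes at Tead3 thus had the same sign with either siRNA and were smallest next to the TSS.

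Tead1 had 5 windows and none of them passed. Its window with the lowest p-value in YAP KD, 831 bp upstream of a start site, had -1.06 ± 0.555 points (q = 0.18). The one in CTR KD, 52027 bp downstream of a different start site, had -1.49 ± 0.726 points (q = 0.15). The Tead1 window nearest to a start site in CTR KD, 456 bp upstream, had 0.769 ± 0.51 points. Tead2 and Tead4 had 2 windows each within 154 bp of their start sites, which were listed for CTR KD differentiation and for T0 alone. Tead2, which is expressed in early embryos, had -0.212 ± 0.174 points at 29 bp in CTR KD differentiation, and Tead4, best known from the trophectoderm, had -1.01 ± 0.628 points at 5 bp. Of Vgll4, a transcriptional co-factor that competes with YAP for TEAD binding and is named here after its values were seen, 8 windows were listed, and 1 of them, in an intron 447 bp from a TSS, had -1.19 ± 0.401 points in YAP KD (q = 0.0194) and 0.513 ± 0.494 points in CTR KD (q = 0.496).

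The core kinases and their adaptors had 18 windows in 5 of 7 genes, of which 1 was called. This is the Nin exon near Sav1, the scaffold of the Mst kinases, on chromosome 12 (71143001 to 71143250), 55137 bp upstream of the Sav1 TSS. It fell by 16.2 points in YAP KD cells (SE 2.91, 95% interval -21.9 to -10.5, q = 6.39e-07). The window was not listed for CTR KD differentiation, nor for the knockdown comparison at T4, so its change cannot be set against that of CTR KD cells. At T0 it differed by 1.36 ± 3.04 points between YAP KD and CTR KD (q = 0.882). The 2 windows of Sav1 within 488 bp of its TSS had -0.256 and 0.224 points in YAP KD and -1.13 and -0.474 points in CTR KD, with no q-value under 0.0738. The change assigned to Sav1 therefore lies within another gene and far from the Sav1 start.

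Lats2, 1 of the kinases that phosphorylate YAP, had 8 windows on chromosome 14, and its coding exon gave the largest difference between the 2 knockdowns' changes among the windows of the 31 genes listed for both. A window 8351 bp downstream of the nearest of its start sites (58310251 to 58310500) had -3.96 ± 2.68 points in YAP KD (q = 0.317) and 5.77 ± 2.56 points in CTR KD (q = 0.104). The overlapping window at 8226 bp had -4.00 ± 2.79 points in YAP KD and 1.98 ± 2.45 points in CTR KD. The difference of the changes at the first was -9.73 ± 3.7 points (95% interval -16.99 to -2.48, not past the z test), and at T4 YAP KD differed from CTR KD there by -7.7 ± 2.7 points (q = 0.143). None of these values passed the threshold, and the interval reaches from a large difference to a small one. A window 39 bp from a different Lats2 start site, far from this exon, had -0.268 ± 0.577 points in YAP KD and -0.901 ± 0.562 points in CTR KD. A window 41 bp upstream of a Lats2 start site had the lowest q-value of all these genes between knockdowns at T4, at -1.58 ± 0.468 points (q = 0.0516).

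Lats1 had no window of its own, because the listed window closest to its TSS, 256 bp away, is closer still to the TSS of Pcmt1. That window had 0.0269 ± 0.459 points in YAP KD (q = 0.788) and -0.288 ± 0.332 points in CTR KD (q = 0.561). Stk3 had no window either, with the closest listed one 137190 bp away. Stk4, Mob1a and Mob1b had 7 windows in all, each within 318 bp of a TSS. Their values lay between -0.845 and 0.393 points in YAP KD and between -1.13 and 0.00941 points in CTR KD, and none passed the q threshold.

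The upstream regulators Nf2 (merlin), Wwc1 (Kibra), Wwc2 and Frmd6 (Willin) act at the cell cortex and switch the kinase cascade on. They held 29 windows, 5 of which were called in YAP KD and 1 in CTR KD, all 5 in the Odz2 exon on chromosome 11 (35860501 to 35861250), between 66597 and 67097 bp upstream of the Wwc1 TSS. In order along the chromosome, the 5 windows lost methylation in YAP KD cells by these values: -13.6, -14.3, -12.7, -10.2 and -12.4 points, with derived SEs between 1.83 and 2.61 points and q-values between 6.29e-10 and 3.73e-06. In CTR KD cells the same windows had -11.4, -8.93, -6.5, -7.78 and -5.32 points, with derived SEs between 1.76 and 2.64 points and q-values between 0.000147 and 0.0235. The first of them was called, and the other 4 passed the q threshold and were under 10 points. Methylation of this exon was thus lower at T4 than at T0 with either siRNA, and at 4 of the 5 windows the 10-point threshold fell between the values of the 2 knockdowns.

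The difference between the knockdowns at this exon did not pass. The YAP KD change minus the CTR KD change was -2.21, -5.4, -6.21, -2.44 and -7.11 points along the 5 windows and passed the z test at none of them. The interval of the last of them was -12.2 to -2.04 points and that of the first was -9.49 to 5.06 points. At T4 the knockdowns differed by -0.153 to 3.42 points (q between 0.398 and 0.924). At T0 YAP KD was higher than CTR KD by 2.46 to 8.15 points (q between 0.0537 and 0.784), so that all 5 windows were above 0 before differentiation and no q-value passed. The comparisons share samples, and the T0 values enter the differentiation changes, so these are not separate observations.

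**Figure D2:**
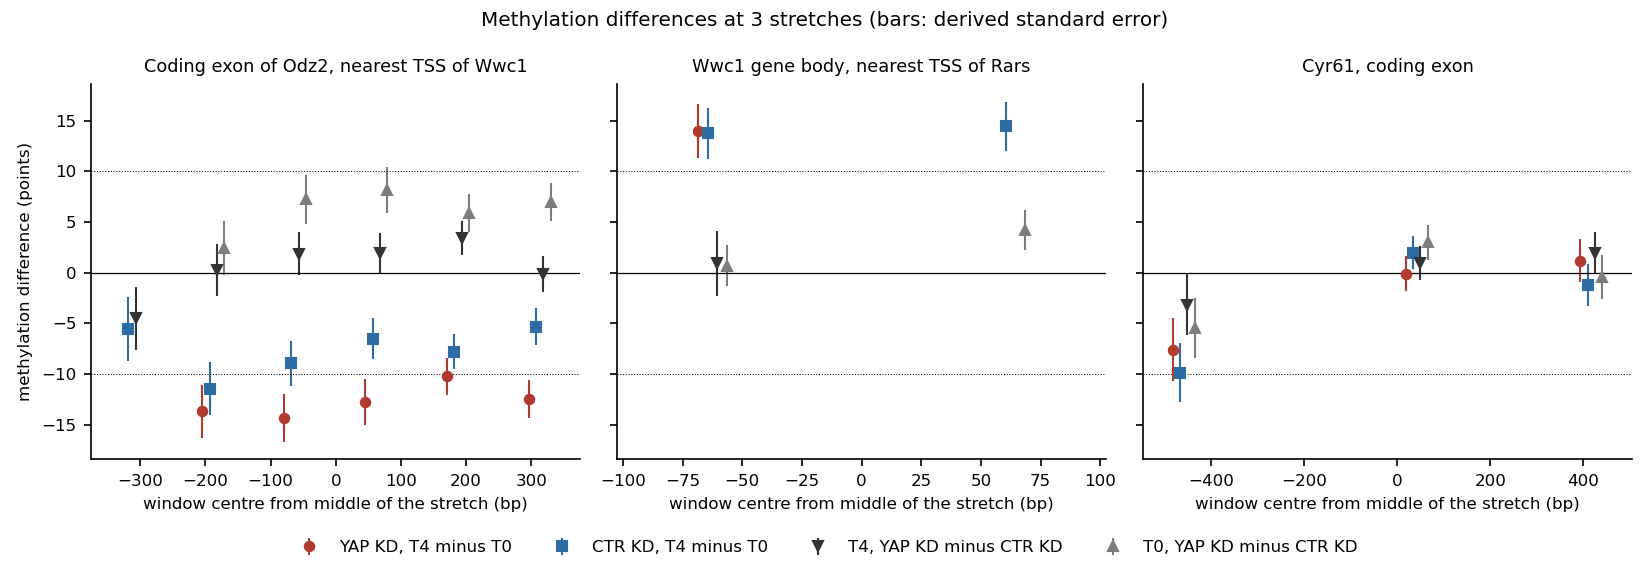
Methylation difference (y axis, percentage points, with the derived SE as bars) of each window along 3 stretches of DNA (x axis, distance of the window centre from the middle of the stretch in bp, with points moved sideways by a few bp so that they do not hide each other) in the 4 comparisons; dotted lines stand at 10 points to either side of 0. The Odz2 exon lost methylation, with 5 YAP KD values from -14.3 to -10.2 points, the Wwc1 exon gained 13.98 points in YAP KD and 13.7 points in CTR KD, and 1 of the 3 windows of Cyr61 had values of -7.57 and -9.85 points in the same order.

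Within Wwc1 itself the change had the opposite sign. The coding exon shown above (chromosome 11, 35655251 to 35655500) lies 7368 bp upstream of the TSS of Rars, an arginyl-tRNA synthetase, and so was not counted for Wwc1 by nearest start site. It gained 13.98 ± 2.65 points in YAP KD (q = 2.68e-06) and 13.7 ± 2.48 points in CTR KD (q = 8.23e-07), a difference of 0.25 points (95% interval -6.86 to 7.36). The window that overlaps it, reaching into an intron, gained 14.5 ± 2.42 points in CTR KD (q = 7.7e-08) and was not listed for YAP KD. Whether Wwc1 is counted among the genes that lost or gained methylation therefore depends on how windows are given to genes. At 222 bp upstream of its own TSS, Wwc1 had 0.144 ± 0.418 points in CTR KD and was not listed in YAP KD, and 1 of its 3 intergenic windows 20722 to 21097 bp upstream passed the q threshold in YAP KD at -2.48 ± 0.788 points (q = 0.0115), beside -0.886 ± 0.932 points in CTR KD (q = 0.529).

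The other 3 upstream regulators were not called and are described after their values were seen, apart from their counts. Wwc2, a paralog of Wwc1, had 2 overlapping intergenic windows 4479 and 4604 bp upstream of its TSS, with 7.08 ± 1.64 and 5.3 ± 1.23 points in YAP KD (q = 0.000197 and 0.000214). The second had 2.67 ± 1.06 points in CTR KD (q = 0.0623), where the first was not listed. The difference of the changes at the second was 2.63 points (95% interval -0.556 to 5.82). Nf2, the tumour suppressor merlin, had 8 windows between 2 and 337 bp from a TSS, with -0.519 to 0.397 points in YAP KD and -0.576 to 1.21 points in CTR KD. Frmd6 had 7 windows, of which 3 lay within 625 bp of a TSS. The others, 27790 to 28165 bp downstream of a TSS, had -3.73 to 3.76 points in YAP KD and -0.646 to 0.306 points in CTR KD. The Frmd6 window at -3.73 points is the 1 window of these genes whose sequence recurs in the genome, by its 31-mers. No window of Nf2 or Frmd6 passed the q threshold.

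The remaining inhibitors and kinases were likewise not called, and the values given for them were picked after they were seen. Amotl2, an angiomotin that holds YAP in the cytoplasm, had 15 windows, the most of any of the 31 genes. A window 35 bp upstream of an alternative start site within the gene had 8.06 ± 2.45 points in YAP KD (q = 0.00753) and 5.9 ± 2.42 points in CTR KD (q = 0.0742). At 43215 bp downstream of a start site an intergenic window had 4.85 ± 2.24 points in YAP KD (q = 0.115) and 5.13 ± 1.83 points in CTR KD (q = 0.0326). The 8 windows within 323 bp of its other start sites were within 2 points of 0 with either siRNA, where listed. Ptpn14, a phosphatase that binds YAP, had 7 windows, none of them past the q threshold. Amotl1 had no window, the closest being 107278 bp from its TSS.

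The TAO kinases phosphorylate Mst1 and Mst2. Taok3 had 2 intronic windows near start sites with -2.88 ± 2.84 and -0.0497 ± 2.85 points in YAP KD and -6.26 ± 3.04 and -5.13 ± 2.71 points in CTR KD, and none of them passed the q threshold. Taok2 had 2 windows upstream of its start with 0.95 points in YAP KD at the one listed and -0.103 and -0.167 points in CTR KD. Taok1 had none, the closest listed window being 69507 bp from its TSS.

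The LIM-domain proteins Ajuba and Limd1 hold the Lats kinases in check, and a window of Ajuba was the 1 of 82 windows of these genes (1.22%) that passed the test of a difference between the knockdowns' changes. This share is that of the background, where 1.29% of all windows passed. The window in its coding exon on chromosome 14 (55195001 to 55195250), 1127 bp downstream of the TSS, had 1.15 ± 0.407 points in YAP KD (q = 0.0276) and -1.005 ± 0.437 points in CTR KD (q = 0.0965). The difference was 2.15 ± 0.597 points (95% interval 0.983 to 3.32), which passed the z test across all windows. At T4 YAP KD differed from CTR KD there by 1.23 ± 0.501 points (q = 0.246) and at T0 by -1.12 ± 0.391 points (q = 0.196). The overlapping window at 1252 bp had 0.443 ± 0.408 points in YAP KD and -1.02 ± 0.43 points in CTR KD, and the window 127 bp from the TSS had 0.547 ± 0.442 and -0.476 ± 0.796 points in the same order. All of these changes are under 2 points, and their difference no longer passed when the derived SEs were doubled. Limd1 had 1 window, with 0.625 ± 0.674 points in CTR KD, and was not listed in YAP KD.

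Of the 5 classical targets only Cyr61 could be followed on differentiation. Cyr61 (Ccn1), a secreted matricellular protein, had 3 windows in its coding exons on chromosome 3. The one 2198 bp downstream of the TSS (145310626 to 145310875) had -7.57 ± 3.11 points in YAP KD (95% interval -13.7 to -1.47, q = 0.0676) and -9.85 ± 2.88 points in CTR KD (95% interval -15.5 to -4.19, q = 0.00583). The CTR KD value passed the q threshold and missed the 10-point threshold. The knockdowns differed there by -3.14 ± 2.99 points at T4 (q = 0.716) and -5.43 ± 2.96 points at T0 (q = 0.509), and the difference of the changes was 2.28 points (95% interval -6.03 to 10.6). The windows 1698 and 1323 bp from the TSS had -0.0739 ± 1.75 and 1.2 ± 2.16 points in YAP KD, against 1.97 ± 1.62 and -1.22 ± 2.05 points in CTR KD. No listed window covered the start site of Cyr61, but a window in a non-coding exon of Gm17501, upstream of Cyr61 and nearest to the TSS of Gm17501, had -8.82 ± 2.49 points in YAP KD (q = 0.00341) and -6.94 ± 2.44 points in CTR KD (q = 0.0295). Birc5, the apoptosis inhibitor survivin, had 2 windows at its start, listed at T0 alone, with -0.318 ± 0.575 and 0.104 ± 0.375 points between YAP KD and CTR KD. Ctgf, Ankrd1 and Axl had no window, the closest listed ones being 30003, 35958 and 13652 bp from their start sites, so nothing can be said of methylation at these targets from these tables.

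Between the knockdowns at the same time no window of the 31 genes was called. At T4, 0 of 92 windows passed the thresholds on the authors' methylKit values, where 0.32% of all windows were called, and 0 passed the q threshold alone (1.33% of all windows). At an unadjusted p under 0.05 there were 16 such windows in 9 genes (17.4% of the 92), beside 11.2% of all windows. At T0, 0 of 100 windows were called, where 0.0867% of all windows were, and 0 passed the q threshold alone (0.389% of all windows), with 12 windows in 7 genes at an unadjusted p under 0.05 beside 10.01% of all windows. With so few calls in either table, none among about 100 windows is close to what the background share gives. The values farthest from 0 were -10.1 ± 3.9 points at T4, in another Odz2 exon 27847 bp upstream of Wwc1 (q = 0.207), and 8.15 ± 2.27 points at T0, in the Odz2 exon described above (q = 0.0682).

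Most of these windows sat at start sites, in about the share of all windows, and most of those at start sites changed little. Of the 114 windows 77 (67.5%) lay within 1 kb of a TSS, beside 69.0% of all windows. Within 1 kb, 57 of 59 windows in YAP KD and 65 of 69 in CTR KD were within 2 points of 0, beside 90.1% and 90.8% of all windows at that distance. None of them was called, where 1.2% of all windows within 1 kb were called in YAP KD and 0.929% in CTR KD. No call among 59 and 69 windows is close to what these background shares give. The window upstream of Cyr61 that was given to Gm17501, with -8.82 points in YAP KD and -6.94 points in CTR KD, is not in these counts. The counted windows that were farther from 0 were those of Amotl2 at its alternative start, of Taok3 and, in CTR KD, 1 of Ptpn14, and they held 9 to 14 CpGs. Windows rich in CpGs moved least: all 34 windows with 20 or more CpGs in YAP KD and all 37 in CTR KD were within 2 points of 0, the farthest at 1.81 and 1.49 points, beside 93.0% and 93.6% of all such windows.

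At 10 to 100 kb from a TSS, 6 of 20 windows were called as losses in YAP KD, near 2 of the 5 genes with a window there, and 1 of 22 in CTR KD, where 10.9% and 6.5% of all windows at that distance were. The 6 windows again stand for 2 stretches of DNA, both in coding exons of neighbouring genes, with 10 to 18 CpGs.

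**Figure D3:**
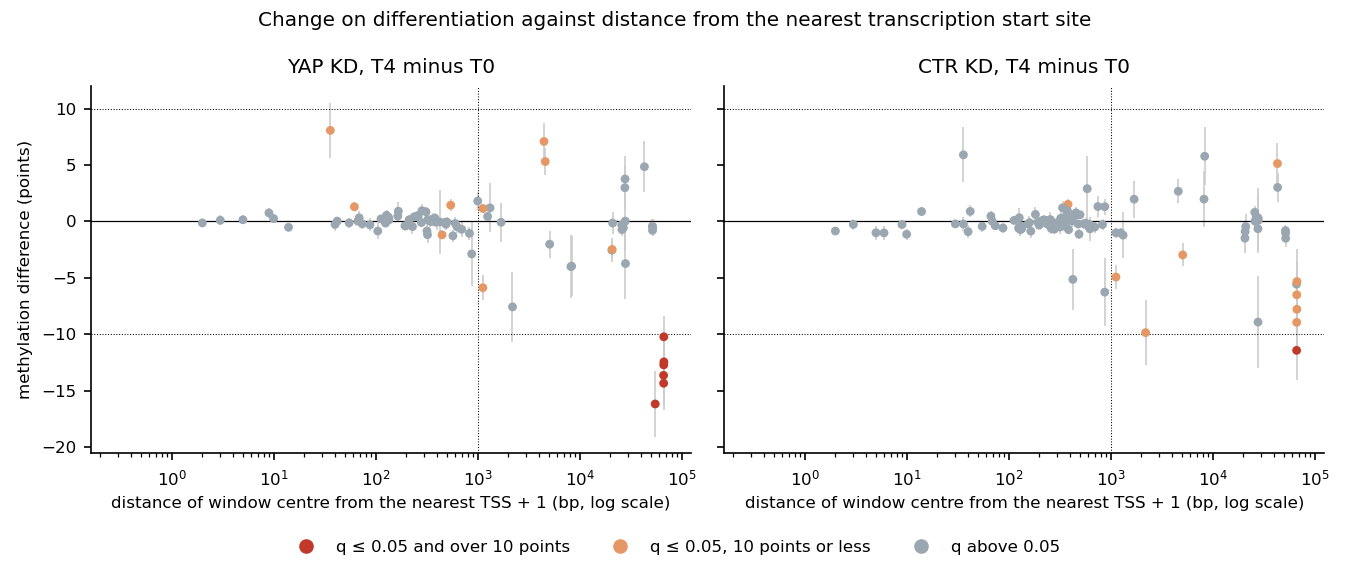
Methylation difference between T4 and T0 (y axis, percentage points, with the derived SE as bars) of each window of the 31 genes against the distance of its centre from the nearest TSS (x axis, bp plus 1, log scale), in YAP KD and CTR KD; the vertical dotted line stands at 1 kb and the horizontal ones at 10 points to either side of 0. Within 1 kb 57 of 59 YAP KD windows and 65 of 69 CTR KD windows are within 2 points of 0, and the called windows lie beyond 50 kb.

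The changes of the 2 knockdowns were compared window by window. Over the 82 windows listed in both differentiation tables, Pearson's r was 0.79 and Spearman's rho 0.34, beside 0.80 and 0.49 over all 38597 such windows. Without the 5 windows of the Odz2 exon they were 0.58 and 0.21. These are descriptions across windows that overlap and come from the same libraries. In a z test of the YAP KD change minus the CTR KD change, adjusted over all windows by the Benjamini-Hochberg method, 1 of 82 windows passed, that of Ajuba (1.29% of all windows passed). At an unadjusted p under 0.05 there were 11 windows in 9 genes, which is 13.4% of the 82, beside 11.3% of all windows. The median difference was 0.264 points over the windows of the 31 genes and -0.154 points over all windows.

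**Figure D4:**
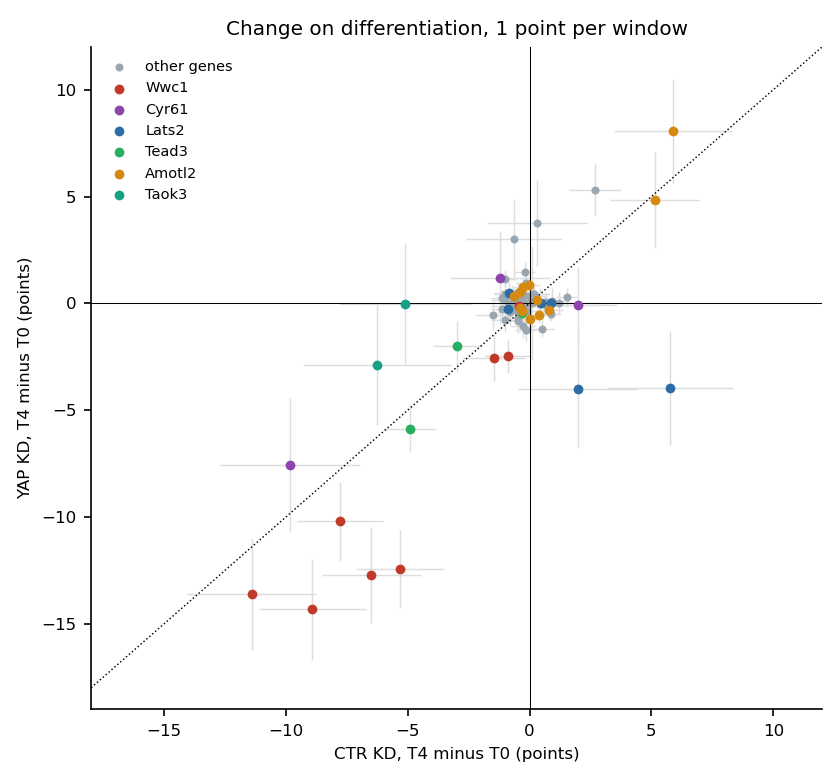
Methylation change between T4 and T0 in YAP KD (y axis, percentage points) against that in CTR KD (x axis, percentage points) for the 82 windows listed for both, with the derived SE as bars, the genes with the largest values in colour and the line of equal change dotted. The 5 Wwc1 windows in the Odz2 exon are at -14.3 to -10.2 points in YAP KD and -11.4 to -5.32 points in CTR KD, and the Lats2 exon is at -3.96 and 5.77 points in the same order.

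Other genes of the pathway, from a list of 88 that do not belong to the 31 (3 of them not matched to the annotation), gave called windows in both directions. In YAP KD 64 of them had a window, of which 3 gained and 2 lost methylation, and in CTR KD 64 had one, of which 5 gained and 3 lost. The called share of their windows was 2.16% in YAP KD and 4.40% in CTR KD, beside 3.85% and 3.17% of all windows. Ywhag, a 14-3-3 protein of the family that holds phosphorylated YAP in the cytoplasm, gained 13.3 points in YAP KD and 23.7 points in CTR KD in its coding exon (q = 0.000598 and 3.02e-09). Map4k3, a kinase of the family that can act beside the Mst kinases, gained 12.4 points in YAP KD and 15.4 points in CTR KD, 72943 bp upstream of its TSS. Losses were at Rassf4, a RASSF-family protein, with -14.7 points in YAP KD and -15.6 points in CTR KD 772 bp upstream of its TSS, and at Crb2, a Crumbs polarity protein, with -12.1 and -12.6 points in the same order. The third loss in CTR KD was at Slmap, named after its values were seen, with -4.39 points in YAP KD (q = 0.24) and -11.2 points in CTR KD (q = 5.58e-05). The difference between the knockdowns at Slmap did not pass the z test. Pard6a, a polarity protein, gained 15.6 points in CTR KD, 2702 bp downstream of its TSS in an exon of a neighbouring gene, and was not listed in YAP KD. Between the knockdowns, 1 of these genes was called at T0, the kinase gene Nuak2, named after its values were seen, with 11.6 points (q = 0.0366). The call at T0 is 1 of 261 windows (0.383%), beside 0.0867% of all windows, and at T4 0 of 230 were called, beside 0.32% of all windows.

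Of 50 further genes reported as targets of YAP or TEAD, 36 had a window in YAP KD, of which 1 gained and 3 lost methylation, and 39 had one in CTR KD, of which 1 gained and 1 lost. The called share of their windows was 2.05% in YAP KD and 0.939% in CTR KD, beside 3.85% and 3.17% of all windows. These shares rest on 1 gained and 3 lost of 195 windows in YAP KD and on 1 gained and 1 lost of 213 in CTR KD. Whether shares from so few windows differ from the background was not tested. Myc gained 10.8 points in YAP KD and 10.9 points in CTR KD in its coding exon. Dkk1, a secreted Wnt antagonist, lost methylation, with -23.5 points in YAP KD (q = 2.71e-11) and -17.4 points in CTR KD (q = 5.32e-06) in an intergenic window 10279 bp downstream. At the start of Tgfb2, a growth factor, YAP KD cells lost methylation, with -15.9 points (q = 8.41e-11), beside -8.96 points in CTR KD (q = 0.000233). At 950 bp upstream of Igfbp3, which binds insulin-like growth factors, YAP KD cells lost methylation as well, with -12.3 points (q = 2.47e-21), beside -7.57 points in CTR KD (q = 1.55e-09). The last 2 values in CTR KD passed the q threshold and were under 10 points. In the counts, Tgfb2 and Igfbp3 therefore differ between the knockdowns through the 10-point threshold. The YAP KD change minus the CTR KD change was -6.94 points at Tgfb2 and -4.73 points at Igfbp3, a larger loss in YAP KD at both. Neither difference passed the z test across all windows. None of these targets was called between the knockdowns at T4 or at T0.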

How the data were processed

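Genomic DNA of 8 samples was captured (SureSelectXT Methyl-Seq) and bisulfite-sequenced. Tools named in the submitters' processing notes are Bismark, Bowtie2, methylKit and Trim Galore, with mm9 as the build. The authors trimmed and aligned the reads, called CpG methylation and compared the groups with methylKit over windows of 250 bp. Each of the 4 deposited tables gives, per window, the p-value and q-value of 1 comparison and the difference in percentage points. These columns are the authors' own comparisons and the tables hold nothing else, so their values are printed as deposited and no model across replicates could be fitted. The 2 samples of a group come from independent experiments. Depth per sample is not given in the sources used here.

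Differentiation differences were read as T4 minus T0, as the study describes losses and gains, and the sign of the knockdown tables was settled against them. Over the 37980 windows found in every table, the knockdown difference at T4 minus that at T0 was within 0.5 points of the YAP KD change minus the CTR KD change for 93.4%, and for 22.2% with the sign of the knockdown tables turned. SEs were obtained by dividing the size of a difference by the normal quantile of its two-sided p-value, and 95% intervals from these. The z test of the difference of the changes was two-sided and adjusted over 38551 windows. It rests on a normal approximation, since without values per sample no exact test could be made, and a window passed at an adjusted value at or below 0.05. The z test was also run on simulated windows drawn with the derived SEs as the true ones. That run cannot show whether the derived SEs are right for these samples. Windows were assigned to the nearest TSS of GENCODE M1 transcripts, and sequences were read from the NCBIM37 (mm9) genome. All 31 genes matched the annotation, Ajuba by its older name Jub. Synonyms came from a RefSeq gene table. Python 3.11.15, numpy 2.4.6, pandas 2.3.3 and scipy 1.17.1 were used.

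The genes, lists and tests were chosen with earlier results of these data known. Genes named were those with a called window or a window past the z test, the paralogs and classical targets, and up to 4 called genes of each further list per differentiation table, with the window of the largest difference past the q threshold (or the lowest p-value) and the one nearest to the TSS. The text says where others are named. Alternatives were stricter and looser thresholds, doubled SEs, windows that do not overlap, other ways to give windows to genes, windows in all tables and windows of single-copy sequence.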

Additional observations from a re-analysis of the deposited data

Results flagged for a closer look

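The change at the Ajuba exon window, 1127 bp downstream of the TSS, differed between YAP KD and CTR KD by 2.15 points (1.15 points in YAP KD and -1.005 points in CTR KD), and the z test of that difference passed over all windows. Both changes are small, the overlapping window at 1252 bp did not pass, and 1.29% of all windows passed the same test. The same difference taken from the comparisons between knockdowns was 2.36 points and passed as well. That estimate uses the same 8 samples and is not independent.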

How the results depend on the processing

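The counts of called windows rest on the thresholds and on a few stretches. In CTR KD the count of 1 became 10 with no minimum difference, 0 over 20 points, 0 within 10 kb of a TSS and 2 when windows were given to genes by position (inside a transcript or within 5 kb before its TSS). In YAP KD the count of 6 became 15, 0, 0 and 1 under the same 4 settings, and 2 when overlapping windows were merged, a setting chosen after seeing the data. By position, the called windows of Wwc1 had 13.98 points in YAP KD and 14.5 points in CTR KD, the reverse of the losses by nearest start site, since other windows are then counted. The 1 window past the z test was lost (0 left) with doubled SEs. The other settings moved no count by over 1.5 times, and the counts of 0 between knockdowns held under all of theirs. Of the named windows, those of Sav1 and Wwc1 fell short of 20 points. No paired analysis was possible because the tables hold no value per replicate, and for the same reason no replicate could be left out. Read depth is unknown, so the precision of each window rests on the derived SE alone. By nearest start site 7 genes had no window. One of them is Lats1, whose closest listed windows were given to Pcmt1.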
